A study of Sus scrofa with 27 samples.

Results

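Glucocorticoids act through a receptor that waits in the cytoplasm in a complex with heat shock proteins, binds the hormone, enters the nucleus and switches target genes on or off. The 10 genes described here belong to that response in the pig lung: NR3C1, which encodes the receptor itself, HSD11B1, whose enzyme regenerates active hormone inside cells, FKBP5, a receptor co-chaperone, and the target genes TSC22D3, KLF9, ZBTB16, CEBPD, CEBPB, GLUL and PDK4. In lung, glucocorticoids are known for restraining cytokine production, for maturing the alveolar epithelium and for shifting cell metabolism. The genes were chosen by name, as known members of the response. Each has 1 row in the deposited table, so that they are 10 of 31908 rows, and all 10 had at least 10 counts in at least 1 library.

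The lungs came from 9 Large-White pigs, taken after death in a non-heart-beating donor model and kept cold before ex vivo lung perfusion (EVLP), in which a donor lung is ventilated and perfused outside the body. In the Gold Standard group (GS, 5 pigs, numbered 9, 17, 44, 55 and 77) part of the Steen perfusate was exchanged for fresh solution at intervals, and in the Pediatric Dialysis group (PD, 4 pigs, numbered 2, 3, 4 and 5) a dialyzer with a small pediatric membrane cleared the circuit. Each lung was biopsied at 0h, after cold ischemia and before perfusion, and again at 6h and 12h, and RNA-seq was made from the 27 biopsies. Methylprednisolone, a synthetic glucocorticoid, was in the starting perfusate of both groups together with cefuroxime and heparin, and no lung was perfused without it, so that the steroid, the perfusion and the passage of time cannot be told apart in any change from 0h. Its concentration in the perfusate is not given in the sources used here. According to the paper the dialysis membrane can remove substances below its size cutoff, and part of the GS perfusate was exchanged. Whether steroid exposure differed between the groups was not tested. The age and sex of the pigs are not given in the sources used here, and the same PD perfusions, unlike the GS ones, had been reported in part in an earlier study of the same laboratory.

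Library totals were 26335584 to 67522703 counts in GS and 14650700 to 21820935 in PD, without overlap, so that depth and group cannot be told apart. Within GS the libraries of pigs 9 and 17 (26335584 to 41802541 counts) were shallower than those of pigs 44, 55 and 77 (51708598 to 67522703). The slope of log2 level on log2 exon length, a reading of how evenly long and short transcripts were recovered, was 0.038 to 0.278 in GS and -0.596 to -0.014 in PD. The 12h library of PD pig 2 (-0.596) and the 0h library of PD pig 4 (-0.352) were the lowest. The plot of this slope against depth shows both. Lung markers were present in every library, with alveolar type 2 markers (6 of 7 in the table, none at 0 in all libraries) summing to 5199 to 15630 CPM (library-scaled counts) in GS and 15490 to 88710 CPM in PD, the highest being the 12h library of PD pig 2. That library also held the highest sums of neutrophil (1512 CPM), red cell (368.6 CPM) and liver markers (372 CPM).

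**Figure D1:**
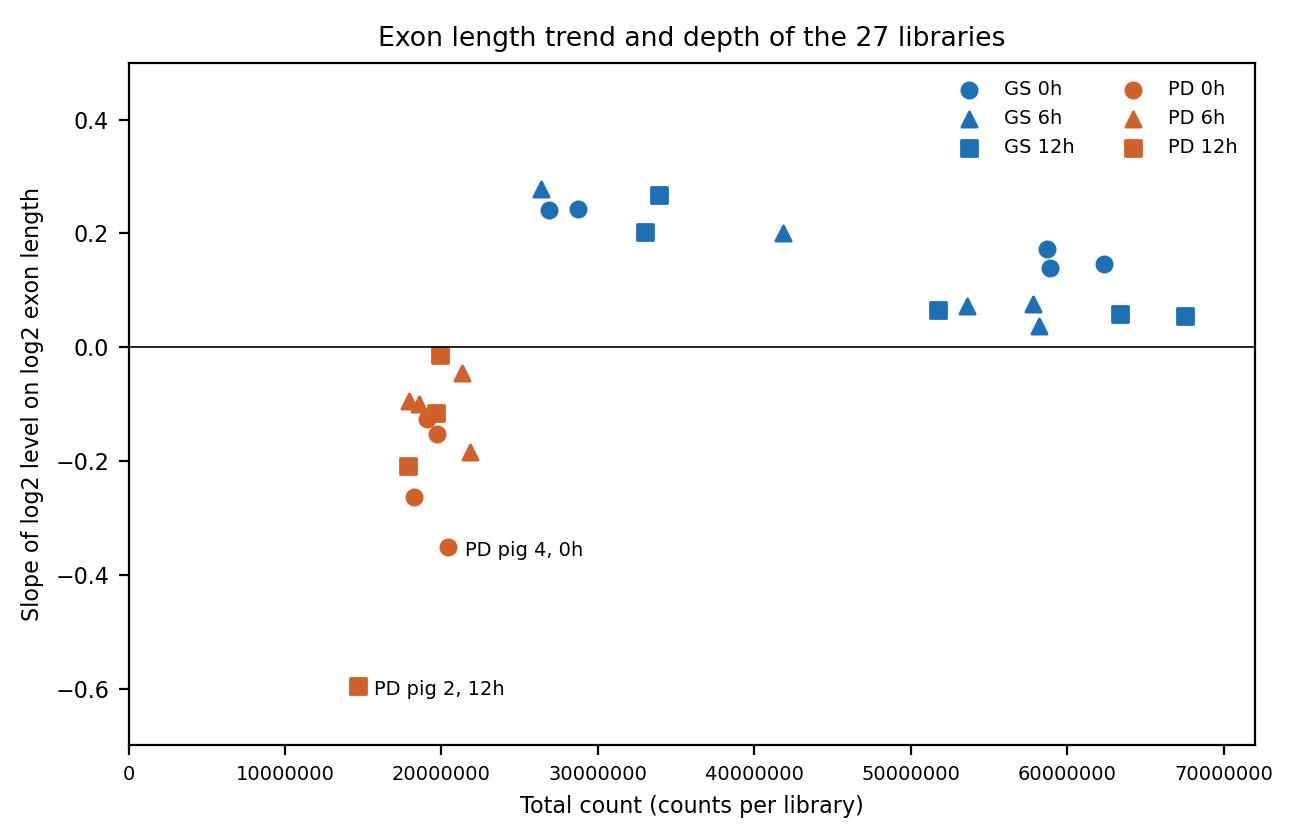
Slope of log2 level on log2 exon length (vertical axis) against total counts per library (horizontal axis) for the 27 libraries, 1 point each, coloured by group and shaped by time. All GS libraries lie above 0 and to the right of all PD libraries, and the 12h library of PD pig 2 lies lowest at -0.596.

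In GS lungs, 3 of the 10 genes were called higher at 6h than at 0h and 5 at 12h. KLF9, a transcription factor, was 3.5-fold higher at 6h and 4.04-fold higher at 12h than at 0h, and CEBPD, a transcription factor of acute phase genes, was 2.87-fold and 3.24-fold higher. PDK4, a kinase of glucose metabolism, was called at 6h (2.41-fold) and not at 12h (1.96-fold). FKBP5, ZBTB16 and GLUL were called at 12h, at 2.76-fold, 2.04-fold and 2.18-fold, after 2.34-fold, 1.72-fold and 1.96-fold at 6h, and none of them passed the test between 6h and 12h. In PD lungs KLF9 alone of the 10 passed the test, 3.62-fold higher at 12h. TSC22D3, known as a classic early target of the receptor, was not called at either time in the 5 GS or the 4 PD pigs, though it was in some subsets of pigs. Cell type markers also moved with time. Lymphocyte marker sums were lower at 12h than at 0h in every pig (medians 190.7 against 262.5 CPM in GS and 116.2 against 177 CPM in PD). Airway marker sums were lower at 12h in every GS pig (medians 165.8 against 245.1 CPM) and went both ways in PD. Their part in the changes from 0h was not tested.

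A gene was called changed from 0h at a Benjamini-Hochberg adjusted p under 0.05 in edgeR, over all genes tested, with a fold change of at least 2. Of the 10 genes, 3 were called at 6h in GS, where 11.1% of all 18594 genes were called, and 5 at 12h, where 15.7% were. In PD, 0 of the 10 were called at 6h (0.142% of all 15545 genes) and 1 at 12h (5.98%). At 6h in PD, 3 of the 10 had an unadjusted p under 0.05 (9.41% of all genes), and DESeq2 called 1, KLF9 (2.3% of all genes). At 12h DESeq2 called 6 of the 10 in GS (15.3% of all genes), PDK4 being added, and 5 in PD (14.6%), FKBP5, GLUL, HSD11B1 and CEBPD being added. All called genes were higher, and calls of higher levels alone made up 5.5%, 6.99%, 0.135% and 3.22% of all genes in the same order. The median log2 fold change of the 10 genes was 0.87 at 6h and 1.0 at 12h in GS, beside -0.05 and -0.08 over all genes, and 0.66 and 1.08 in PD, beside -0.025 and -0.05. Without the 12h library of PD pig 2, 6 of the 10 were called at 12h in PD, when 26.2% of all genes were, and 1 at 6h (1.59%).

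**Figure D2:**
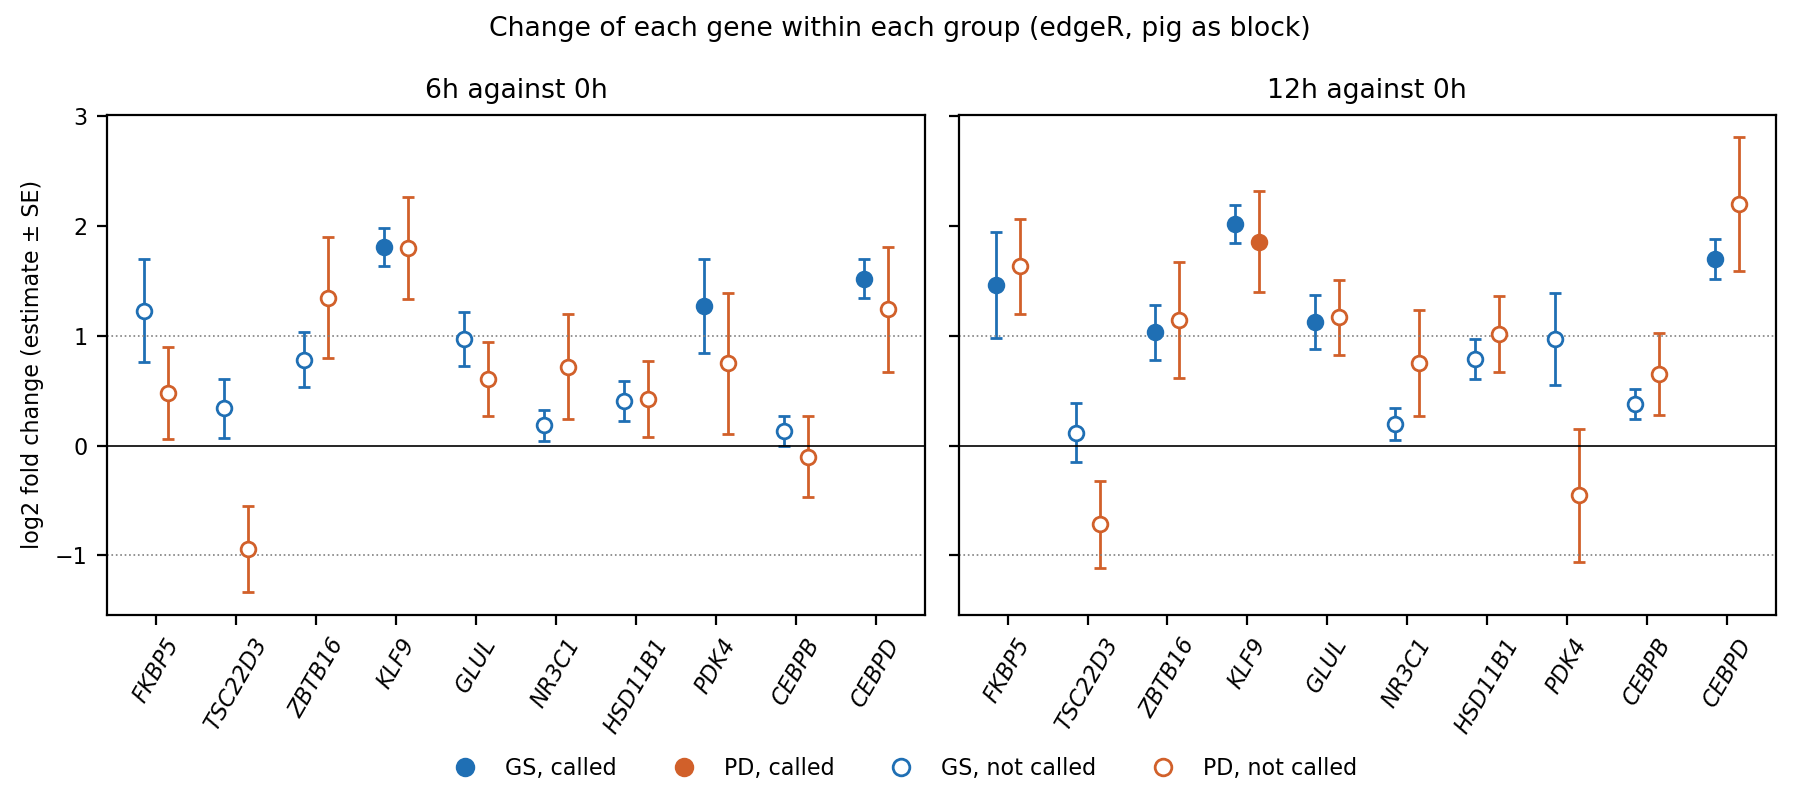
Fitted log2 fold change against 0h of each gene (vertical axis, point with SE bars) at 6h (left) and 12h (right) in GS (blue) and PD (orange), with filled points for called genes and dotted lines at a fold change of 2 either way. KLF9 and CEBPD are filled in GS at both times, and KLF9 is the only filled PD point.

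NR3C1 (ENSSSCG00000014401, Sscrofa11.1 chr2:144822937-144956095, minus strand) encodes the glucocorticoid receptor. In GS pigs 9, 17, 44, 55 and 77 its level was 158, 173, 134, 135 and 136 CPM at 0h, 243, 192, 144, 128 and 149 CPM at 6h and 148, 252, 168, 159 and 144 CPM at 12h. In PD pigs 2, 3, 4 and 5 it was 158, 173, 94 and 144 CPM at 0h, 287, 163, 327 and 179 CPM at 6h and 74.2, 274, 384 and 290.0 CPM at 12h. The GS times overlapped. In PD, pigs 3, 4 and 5 were above every 0h value at 12h, and pig 2 lay below them all, in the library that stood apart. The log2 fold change was 0.18 ± 0.14 (SE, adjusted p = 0.361) at 6h and 0.19 ± 0.14 (SE, adjusted p = 0.299) at 12h in GS, and 0.72 ± 0.47 (SE, adjusted p = 0.637) and 0.75 ± 0.48 (SE, adjusted p = 0.37) in PD. Without the 12h library of PD pig 2, the receptor was called higher in PD at 12h, at 1.18 (adjusted p = 0.0266), and with the 0h library of PD pig 4 also left out it was under the fold threshold, at 0.90 (adjusted p = 0.0427).

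HSD11B1 (ENSSSCG00000015616, chr9:133231451-133278396, minus strand) encodes the reductase that turns inert keto steroids back into active glucocorticoid inside the cell. Its GS levels, in the same order of pigs, were 106, 79, 68.5, 108 and 63.1 CPM at 0h, 133, 180.2, 101, 96 and 78.4 CPM at 6h and 174, 207, 156, 103 and 123 CPM at 12h. PD levels were 135, 170.2, 188 and 99.6 CPM at 0h, 209.8, 141, 289 and 154 CPM at 6h and 150.0, 324, 439 and 308 CPM at 12h. Levels at 12h exceeded those at 0h in 4 of 5 GS pigs and in 4 of 4 PD pigs, with GS pig 55 and PD pig 2 nearest to no change. At 12h in GS the adjusted p was 0.00528 but the fold change, 1.73, was under the threshold, and at 6h the log2 fold change was 0.41 ± 0.18 (SE, adjusted p = 0.11). PD gave 0.42 ± 0.35 (SE, adjusted p = 0.679) at 6h and 1.01 ± 0.35 (SE, adjusted p = 0.104) at 12h. Without the 12h library of PD pig 2 the gene was called in PD at 12h, at 1.27 (adjusted p = 0.0121).

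FKBP5 (ENSSSCG00000001549, chr7:31440821-31585350, minus strand) encodes an immunophilin that binds the receptor complex, lowers its affinity for hormone and so closes a feedback loop. The GS levels were 260.0, 104, 423, 85.6 and 283 CPM at 0h, 1404.5, 862, 431, 191 and 398 CPM at 6h and 2003, 823, 349, 439 and 279.9 CPM at 12h. The PD levels were 79.6, 167, 227 and 76.2 CPM at 0h, 107, 152, 399 and 121 CPM at 6h and 101, 778, 524 and 395 CPM at 12h. Pigs differed widely: GS pigs 9 and 17 reached 7.71-fold and 7.92-fold of their 0h level at 12h and pig 55 5.13-fold, whereas pigs 44 and 77, the 2 highest at 0h, stood at 0.824-fold and 0.989-fold. In PD, pigs 3, 4 and 5 were above every 0h value at 12h, and pig 2 was not. In GS the log2 fold change was 1.23 ± 0.47 (SE, adjusted p = 0.0656) at 6h, not called, and 1.46 ± 0.48 (SE, adjusted p = 0.0295) at 12h, called. At 6h the gene was called without pig 44 (1.67 (adjusted p = 0.0347)) and with the exon length trend removed (1.31 (adjusted p = 0.0493)). It was not called there by DESeq2 (1.26 (adjusted p = 0.0533)) or without any other single pig. The 12h call was lost without pig 9 (adjusted p = 0.0919), pig 17 (0.111) or pig 55 (0.132), and also without the pig as a block (adjusted p = 0.0681) or without a filter on low counts (0.114). In PD it was 0.48 ± 0.42 (SE, adjusted p = 0.695) at 6h and 1.63 ± 0.43 (SE, adjusted p = 0.0501) at 12h, and the 12h value became 1.97 (adjusted p = 0.00513) without the 12h library of pig 2.

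FKBP5 is also one of the 2 genes of the 10 with the full palindromic letters of the glucocorticoid response element, the half-site AGAACA followed after a spacer of 3 bases by its reverse complement TGTTCT, within 100 kb of the gene start in the deposited table. The letters read the same on both strands, each match also holds the shorter pair GNACA and TGTNC at the same spacing, and 3.34% of 20217 protein-coding genes have such a match in a window of that size. The matches are shown because FKBP5 and GLUL were both called at 12h in GS. In FKBP5 it lies at chr7:31513969-31513983, in an intron of FKBP5, 71374 bases inside the gene from the table's start, which lies upstream of the RefSeq start at 31550704. In GLUL it lies at chr9:123708010-123708024, 54530 bases from the gene start in an intron of LOC110255522. Both are printed from the Sscrofa11.1 genome on the minus strand, the strand of the gene, with the motif in capitals, and say nothing of whether the receptor binds there.
FKBP5: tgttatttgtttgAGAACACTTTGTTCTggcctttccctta
GLUL: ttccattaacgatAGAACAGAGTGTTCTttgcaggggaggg

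TSC22D3 (ENSSSCG00000030241, chrX:88171329-88233964, minus strand) encodes the glucocorticoid-induced leucine zipper, a protein known to dampen inflammatory transcription. Levels in GS were 95.4, 117, 294, 165 and 277 CPM at 0h, 166, 396, 262, 157 and 250.1 CPM at 6h and 187, 310.3, 196, 143 and 198 CPM at 12h. Levels in PD were 245, 462, 770.4 and 538 CPM at 0h, 260.1, 304, 263 and 204 CPM at 6h and 365, 286, 239.8 and 298 CPM at 12h. GS pigs 9 and 17, the 2 lowest at 0h, were higher at both later times, and pigs 44, 55 and 77 were lower at both. In PD, pigs 3, 4 and 5 started at 462 CPM or more and were lower at 6h and 12h, while pig 2 was higher at both. The sums of alveolar type 2 and of neutrophil markers also fell below their 0h value at both times in pigs 3, 4 and 5 and lay above it in pig 2 (alveolar type 2 at 12h against 0h, 88710 against 39400 CPM in pig 2 and 22320 against 26570, 26250 against 77860 and 17540 against 46400 CPM in pigs 3, 4 and 5), and their part in the TSC22D3 values was not tested. The log2 fold change was 0.34 ± 0.27 (SE, adjusted p = 0.368) at 6h and 0.12 ± 0.27 (SE, adjusted p = 0.751) at 12h in GS. In PD it was -0.94 ± 0.39 (SE, adjusted p = 0.494), with an unadjusted p of 0.0352, and -0.72 ± 0.40 (SE, adjusted p = 0.294). Without PD pig 2 altogether, the gene was called lower in PD at 12h, at -1.12 (adjusted p = 0.0354), and without only the 12h library of that pig it was not (-0.96 (adjusted p = 0.0688)).

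KLF9 (ENSSSCG00000021646, chr1:223720445-223748226, minus strand), a Krüppel-like transcription factor and a direct receptor target, was higher after perfusion in all 9 pigs. GS levels were 125, 112, 152, 144 and 148 CPM at 0h, 605, 427, 447, 459 and 486 CPM at 6h and 645, 702, 597, 527 and 374 CPM at 12h. PD levels were 119.9, 185, 168 and 155 CPM at 0h, 713, 347, 597 and 451 CPM at 6h and 177, 656, 840.0 and 723 CPM at 12h. Every GS value at 6h and 12h was above every GS value at 0h, and every pig of both groups was higher at both times than at 0h. The smallest change was that of PD pig 2 at 12h, 1.48-fold, in the library that stood apart, after 5.94-fold at 6h. The log2 fold change in GS was 1.81 ± 0.17 (SE, adjusted p = 0.000105) at 6h and 2.01 ± 0.17 (SE, adjusted p = 3.71e-05) at 12h. In PD it was 1.80 ± 0.46 (SE, adjusted p = 0.188) at 6h and 1.86 ± 0.46 (SE, adjusted p = 0.0409) at 12h. The PD call at 12h was lost without pig 3 (1.85 (adjusted p = 0.223)), pig 4 (1.72 (adjusted p = 0.128)) or pig 5 (1.70 (adjusted p = 0.319)). In these fits the change itself moved little. Without the 12h library of pig 2 the gene was called in PD at 6h (1.70 (adjusted p = 0.0169)) and at 12h (2.23 (adjusted p = 0.00261)).

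The shorter motif, GNACA and its reverse complement TGTNC around a spacer of 3 bases, lies within 10 kb of the start of 5 of the 10 genes (KLF9, NR3C1, GLUL, CEBPD and FKBP5), and of 23.1% of 20273 protein-coding genes. FKBP5 is among the 5 as counted from the deposited table's start, and the window around its RefSeq start was not searched for this motif. Its matches, at chr7:31576986 to 31584976, lie in introns of LOC100521322, more than 10 kb upstream of the RefSeq start at 31550704. Of the 5, KLF9 and GLUL are shown since both were called in GS and each has 1 match. The KLF9 match is at chr1:223754330-223754342, intergenic, 6110 bases upstream of the gene start, and the GLUL match at chr9:123760748-123760760, in an intron of GLUL, 1793 bases downstream of its start. They are given on the minus strand, the strand of both genes, with the matched letters in capitals. Within 2 kb upstream of the start, 0 of the 10 genes and 2.61% of 20275 protein-coding genes had a match, which says only that these letters are not in that window.
KLF9: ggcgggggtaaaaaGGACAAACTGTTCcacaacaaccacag
GLUL: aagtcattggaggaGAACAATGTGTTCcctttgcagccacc

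ZBTB16 (ENSSSCG00000030095, chr9:41639701-41836742, plus strand) encodes a zinc finger transcription factor, also called PLZF, that is strongly induced by glucocorticoids in many cell types. The GS pigs gave 155, 110.1, 390.0, 99.1 and 316 CPM at 0h, 268, 261, 396, 379.7 and 380.1 CPM at 6h and 315, 409, 449, 393 and 438 CPM at 12h. The PD pigs gave 27.1, 51, 35.4 and 15.7 CPM at 0h, 20.8, 133, 68.3 and 201 CPM at 6h and 31.8, 161, 66.8 and 90.9 CPM at 12h. GS pigs 44 and 77 were already high at 0h, and by 12h the 5 GS pigs had drawn together between 315 and 449 CPM. PD values were lower than all GS values of the same time, the highest being pig 5 at 6h. In GS the log2 fold change was 0.78 ± 0.25 (SE, adjusted p = 0.0339) at 6h, under the fold threshold, and 1.03 ± 0.25 (SE, adjusted p = 0.00686) at 12h, called. Without pig 17 or pig 55 the 12h change dropped under 2-fold, to 0.83 (adjusted p = 0.038) and 0.84 (adjusted p = 0.0238), and without the pig as a block it was 0.87 (adjusted p = 0.0717). With all 27 libraries in 1 fit it was 1.07 (adjusted p = 0.0605), not called. The PD changes were 1.35 ± 0.55 (SE, adjusted p = 0.481) and 1.14 ± 0.53 (SE, adjusted p = 0.211), where pig 5 at 6h was 12.8-fold of its 0h level and pig 2 hardly moved, with 0.768-fold and 1.18-fold. Without pig 5 the 6h change was 0.61 (adjusted p = 0.952) and without pig 2 1.95 (adjusted p = 0.0928). Without pig 2 the gene was called in PD at 12h, at 1.54 (adjusted p = 0.0432).

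CEBPD (ENSSSCG00000032367, chr4:79872421-79873989, plus strand) encodes C/EBP delta, which responds to glucocorticoids and to cytokines alike. GS values were 89.9, 115, 118, 108 and 154 CPM at 0h, 272, 392, 324, 389 and 325 CPM at 6h and 256, 699.8, 334, 407 and 338 CPM at 12h. PD values were 53.8, 45.9, 153 and 79.2 CPM at 0h, 132, 208, 203 and 186 CPM at 6h and 846, 175, 182 and 376 CPM at 12h. In GS every value at 6h and 12h was above every value at 0h. The same held in PD at 12h, where pig 2 reached 15.7-fold of its 0h level, in the library that stood apart, against 1.19-fold in pig 4. Neutrophil (1512 CPM), red cell (368.6 CPM) and liver markers (372 CPM) were highest in that library of pig 2, and their part in the value was not tested. The GS log2 fold change was 1.52 ± 0.18 (SE, adjusted p = 0.000266) at 6h and 1.70 ± 0.18 (SE, adjusted p = 7.42e-05) at 12h. In PD it was 1.24 ± 0.57 (SE, adjusted p = 0.534) at 6h and 2.2 ± 0.61 (SE, adjusted p = 0.0565) at 12h, and without the 12h library of pig 2 the latter was 1.45 (adjusted p = 0.0218), a smaller change that was called. The 12h call in PD was also made by DESeq2 (2.24 (adjusted p = 0.00115)) and without the pig as a block (2.24 (adjusted p = 0.0214)). Without both that library and the 0h library of pig 4, the gene was also called at 6h in PD (1.69 (adjusted p = 0.0038)).

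CEBPB (ENSSSCG00000034207, chr17:51722426-51724305, plus strand), the related C/EBP beta, is likewise used by both glucocorticoid and cytokine signalling. GS lungs gave 109, 220.2, 206, 102 and 143 CPM at 0h, 104, 239.9, 184, 161 and 169.8 CPM at 6h and 138, 281, 189, 204 and 206 CPM at 12h. PD lungs gave 172, 169, 235 and 234 CPM at 0h, 227, 194, 176 and 173 CPM at 6h and 639, 201, 242 and 309 CPM at 12h. The times overlapped in GS, and in PD the 12h value of pig 2 was far above all others. Neutrophil and red cell markers were highest in the same library, and their part in the value was not tested. In GS the log2 fold change was 0.13 ± 0.14 (SE, adjusted p = 0.511) at 6h and 0.38 ± 0.14 (SE, adjusted p = 0.046) at 12h, where the fold change of 1.3 was under the threshold. PD changes were -0.10 ± 0.37 (SE, adjusted p = 0.924) and 0.65 ± 0.38 (SE, adjusted p = 0.313), the latter 0.29 (adjusted p = 0.501) without that library.

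GLUL (ENSSSCG00000015545, chr9:123751548-123762547, minus strand) encodes glutamine synthetase, which makes glutamine from glutamate and ammonia and is raised by glucocorticoids in lung and muscle. Its levels in GS were 525, 298, 1006, 521 and 547 CPM at 0h, 1352, 1142, 1273, 881 and 955 CPM at 6h and 2197, 1309, 1321, 932 and 768 CPM at 12h. Its levels in PD were 297, 362, 627 and 304 CPM at 0h, 511, 508, 739 and 598 CPM at 6h and 546, 1116, 863 and 977 CPM at 12h. All 9 pigs were higher at both later times than at 0h. At 12h the ratio to 0h ran from 1.31-fold in GS pig 44, the highest at 0h, to 4.4-fold in GS pig 17. In GS the log2 fold change was 0.97 ± 0.24 (SE, adjusted p = 0.0117) at 6h, just under 2-fold, and 1.12 ± 0.25 (SE, adjusted p = 0.00392) at 12h, called. DESeq2 called the 6h change too, at 1.003 (adjusted p = 0.00091). So did edgeR with DESeq2 size factors (1.004) and with the exon length trend removed (1.03). The 6h change was also called without pig 44 (1.16), pig 55 (1.03) or pig 77 (1.04). It stayed under 2-fold without pig 9 (0.92) or pig 17 (0.76), without a filter on low counts (0.98) and with all 27 libraries in 1 fit (0.98). Without pig 9 or pig 17 the 12h change was under 2-fold, at 0.93 (adjusted p = 0.0121) and 0.91 (adjusted p = 0.0162). In PD the values were 0.61 ± 0.34 (SE, adjusted p = 0.598) and 1.17 ± 0.34 (SE, adjusted p = 0.0668), and the 12h value was 1.27 (adjusted p = 0.0179) without the 12h library of pig 2.

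PDK4 (ENSSSCG00000015334, chr9:75246002-75260134, minus strand) encodes a kinase that shuts pyruvate dehydrogenase and so spares glucose. Levels across GS pigs were 72.4, 38.4, 107, 103 and 94.5 CPM at 0h, 391, 440.1, 142, 110.4 and 149 CPM at 6h and 424, 211, 124, 146 and 113 CPM at 12h. Levels across PD pigs were 21, 75.1, 91.9 and 61.3 CPM at 0h, 125, 41.2, 144 and 55.1 CPM at 6h and 8.85, 41.5, 63.7 and 77.1 CPM at 12h. GS pigs 9 and 17 were far above their 0h level at 6h, by 5.39-fold and 11.5-fold, while pigs 44, 55 and 77 changed by 1.07-fold to 1.57-fold. In PD, pig 2 was 5.95-fold higher at 6h and at 0.422-fold at 12h. Adipocyte markers (4 of 4 in the table) also summed highest in that 6h library (188.2 CPM against 3.886 to 83.96 CPM in the other PD libraries), and their part was not tested. The GS change was 1.27 ± 0.43 (SE, adjusted p = 0.0406) at 6h, called, and 0.97 ± 0.42 (SE, adjusted p = 0.0803) at 12h, where DESeq2 called the gene at 1.03 (adjusted p = 0.0272). The 6h call was lost without pig 9 (1.08 (adjusted p = 0.0876)) or pig 17 (0.77 (adjusted p = 0.125)), where the change was smaller. It was also lost without pig 44 (1.55 (adjusted p = 0.056)) or pig 77 (1.49 (adjusted p = 0.06)), where the change was larger. Without a filter on low counts (1.28 (adjusted p = 0.142)) and with all 27 libraries in 1 fit (1.29 (adjusted p = 0.13)) the call was lost at about the same change. PD changes were 0.75 ± 0.64 (SE, adjusted p = 0.693) and -0.45 ± 0.60 (SE, adjusted p = 0.692), the former -0.12 (adjusted p = 0.873) without pig 2.

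**Figure D3:**
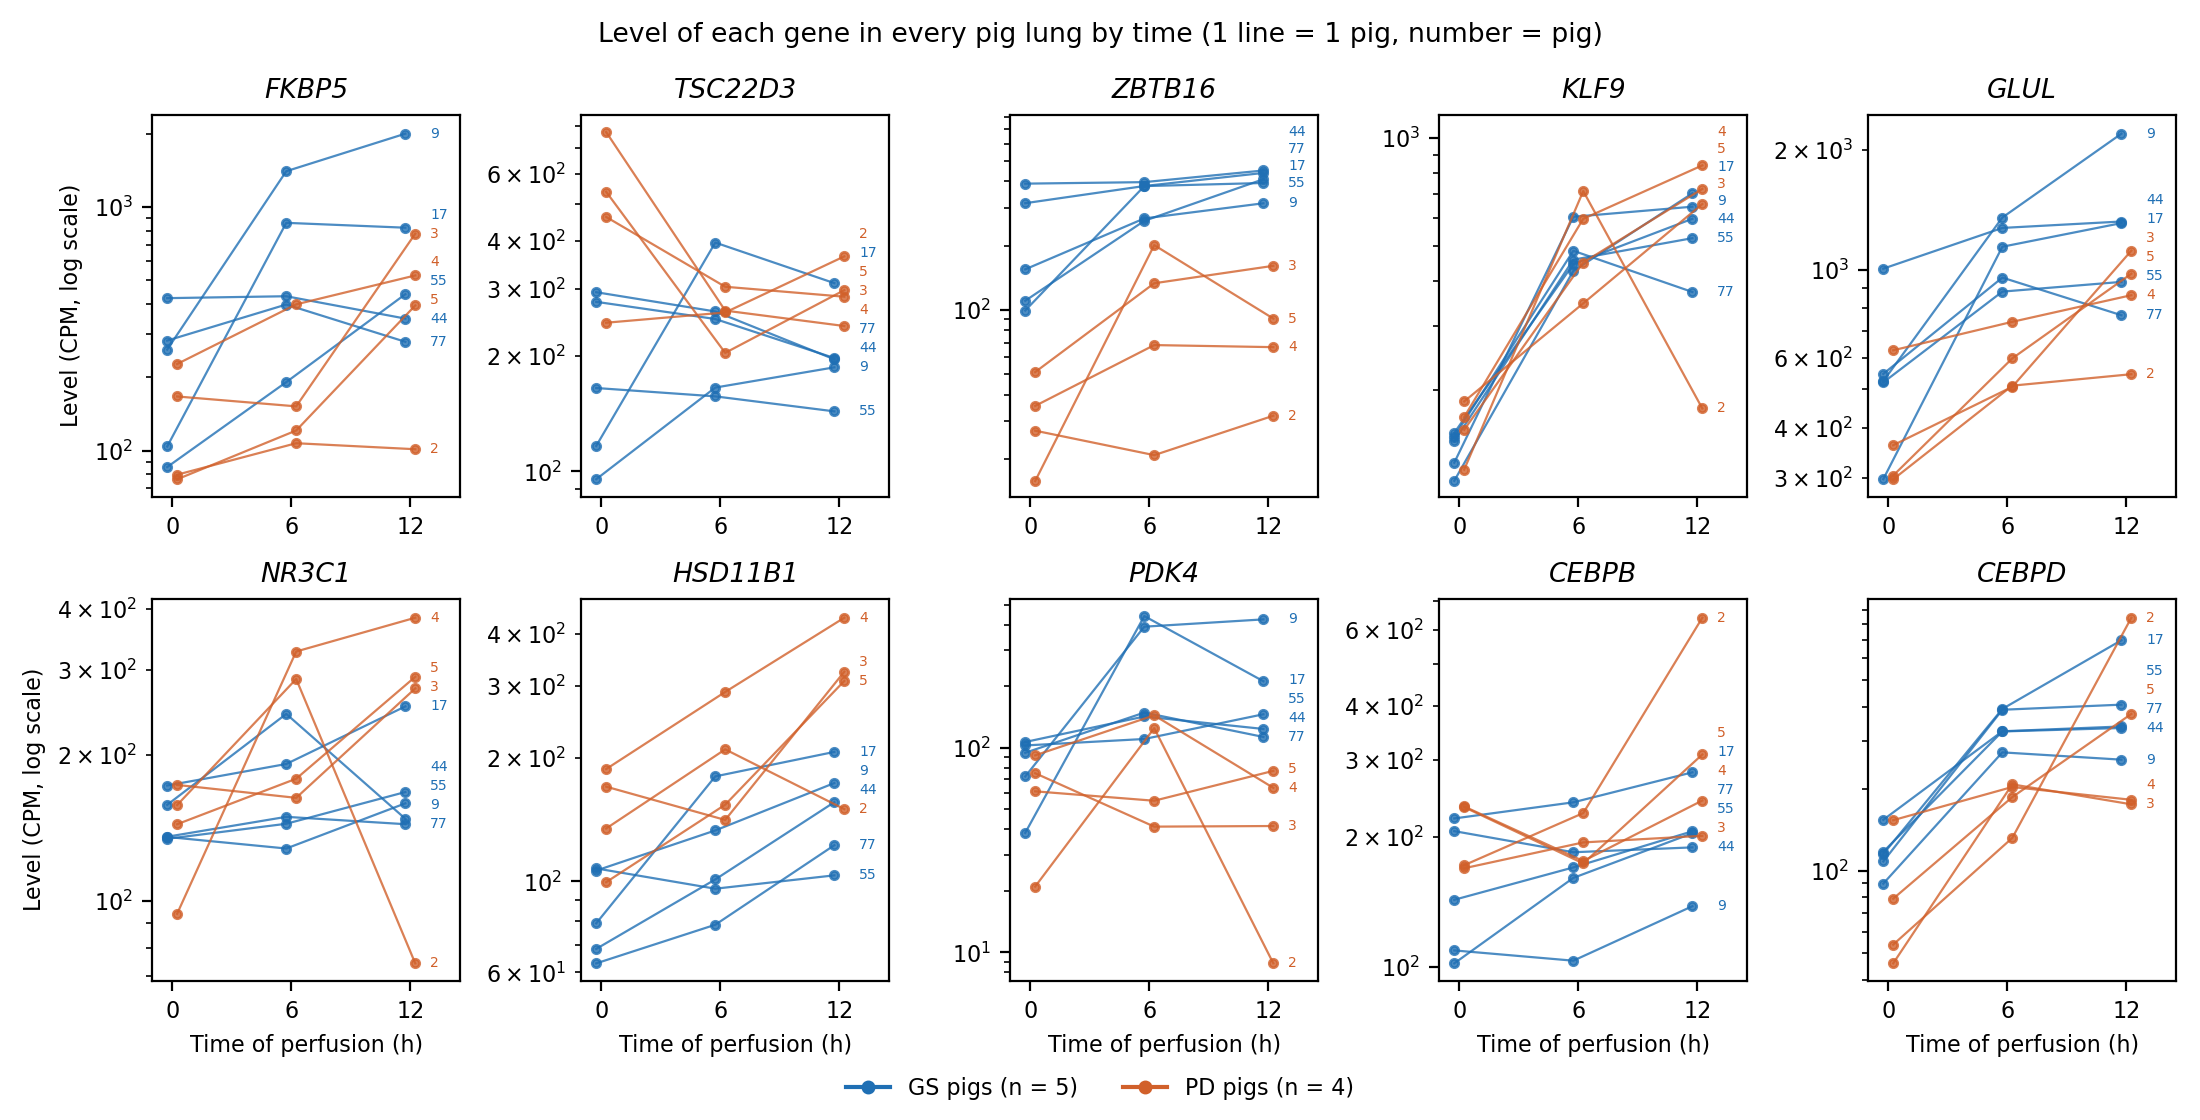
Level of each gene in CPM on a log axis (vertical) at 0h, 6h and 12h (horizontal), with 1 line per pig, blue for the 5 GS pigs and orange for the 4 PD pigs, each line ending in its pig number. KLF9 is higher at 6h and 12h than at 0h in every pig and ZBTB16 is lower in PD than in GS at every time, whereas the 12h point of PD pig 2 is the highest of the 4 PD pigs for TSC22D3, CEBPB and CEBPD and the lowest for the other 7 genes.

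GS pigs were also fitted in 2 sets, the shallower libraries of pigs 9 and 17 and the deeper ones of pigs 44, 55 and 77, a split made after the data had been seen, and the difference between the sets was not tested. KLF9 and CEBPD were called in both sets, at 12h with log2 fold changes of 2.50 (adjusted p = 0.00896) and 2.06 (adjusted p = 0.0163) in the shallower and 1.75 (adjusted p = 0.000148) and 1.51 (adjusted p = 0.000295) in the deeper. FKBP5 was 2.95 (adjusted p = 0.00896) in pigs 9 and 17 and 0.71 (adjusted p = 0.218) in the other 3. PDK4 was 2.50 (adjusted p = 0.0154) and 0.34 (adjusted p = 0.12). TSC22D3 ran in opposite directions, 1.16 (adjusted p = 0.0385) in pigs 9 and 17 and -0.42 (adjusted p = 0.028) in the other 3. ZBTB16 (1.44 (adjusted p = 0.0216) and 0.80 (adjusted p = 0.0812)), GLUL (2.08 (adjusted p = 0.00969) and 0.58 (adjusted p = 0.0147)) and HSD11B1 (1.01 (adjusted p = 0.0472) and 0.70 (adjusted p = 0.025)) had the same direction in both. Of the 10 genes, 8 were called at 12h in pigs 9 and 17 (7.64% of all genes) and 2 in pigs 44, 55 and 77 (18.9%). Pigs 9 and 17 also had the steeper exon length slopes (0.2 to 0.278 against 0.038 to 0.172), and pig, depth and slope cannot be told apart here. Fibroblast and smooth muscle marker sums were below 0h at both times in pigs 9 and 17 and above it at both in the other 3. At 12h against 0h they were 1779 against 3666 and 2382 against 2669 CPM in pigs 9 and 17. In pigs 44, 55 and 77 they were 3196 against 2707, 3975 against 3306 and 3935 against 3402 CPM. Their part in the split was not tested.

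**Figure D4:**
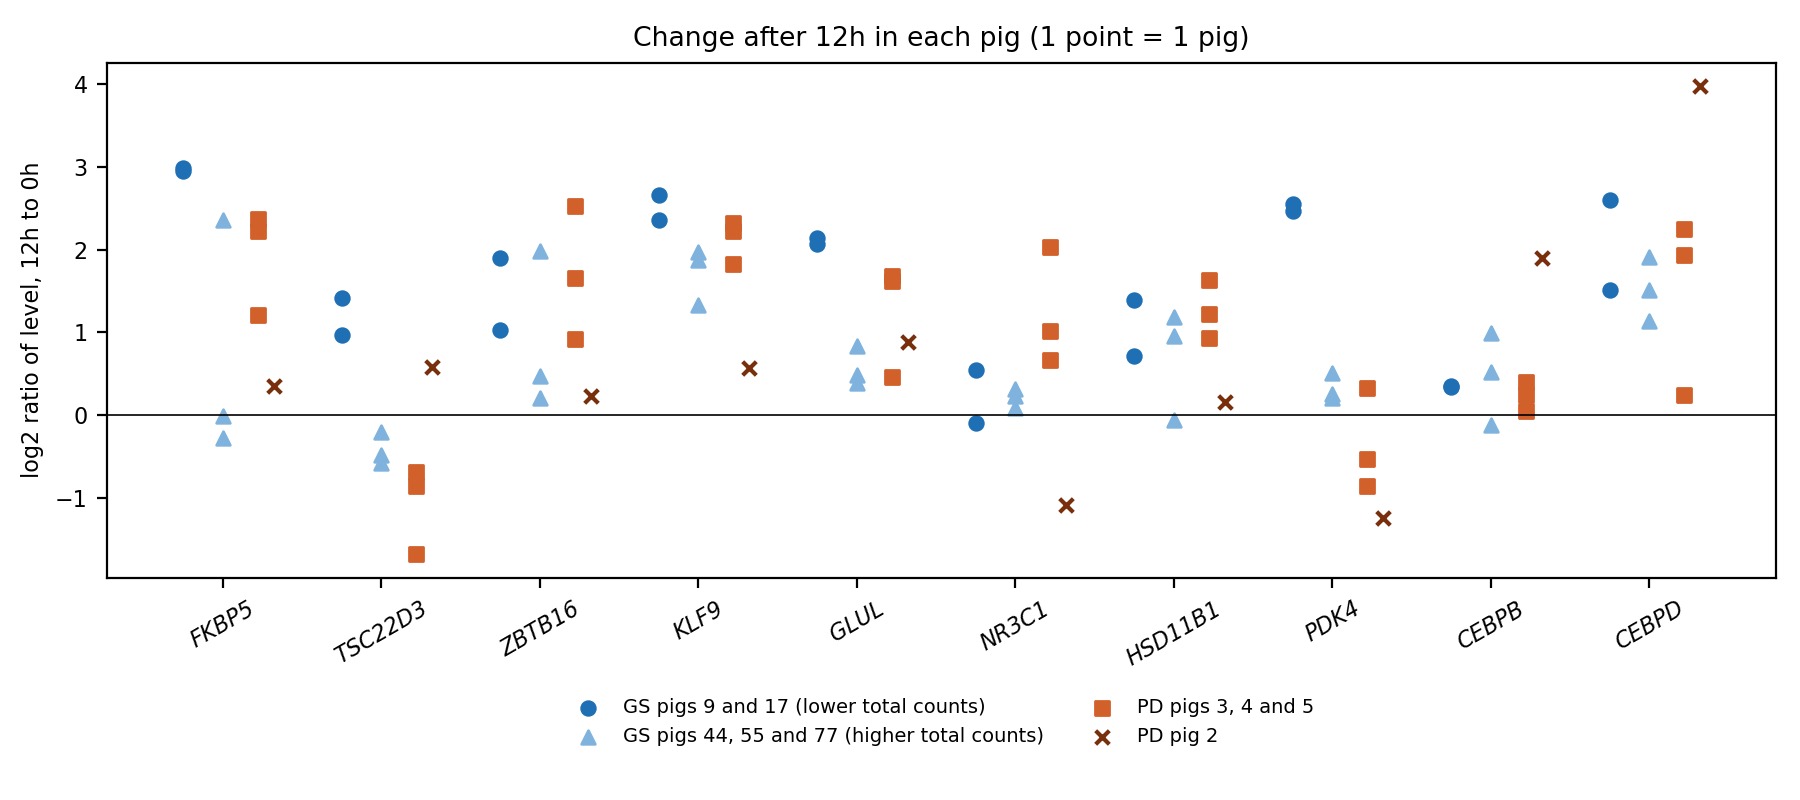
log2 ratio of the 12h to the 0h level (vertical axis) for each gene (horizontal axis), 1 point per pig, with GS pigs 9 and 17 as circles, GS pigs 44, 55 and 77 as triangles, PD pigs 3, 4 and 5 as squares and PD pig 2 as crosses. KLF9, ZBTB16, GLUL and CEBPD lie above 0 in all 9 pigs, and GS pigs 9 and 17 lie above the other 3 GS pigs for FKBP5, TSC22D3, KLF9, GLUL and PDK4.

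No gene of the 10 passed the test between 6h and 12h (adjusted p under 0.05, with no fold threshold). In GS, 0 of the 10 were called (0% of all genes, with 882 of 18594, 4.74%, at an unadjusted p under 0.05 and 0 of the 10), and DESeq2 called 0 of the 10 (0.0216% of all genes). In PD, 0 were called (0% of all genes, with 1562 of 15545, 10%, at an unadjusted p under 0.05), and DESeq2 called 0 (1.31%). FKBP5 was the 1 gene of the 10 at an unadjusted p under 0.05, with a log2 difference of 1.16 ± 0.43 (SE, adjusted p = 0.431) between 12h and 6h in PD. Without the 12h library of pig 2 and the 0h library of pig 4 it passed, at 1.49 (adjusted p = 0.0231), when 4.34% of all genes did.

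The study asked how dialysis alters the lung's response, so the change from 0h was compared between PD and GS as an interaction of group and time. No gene of the 10 was called, and none of the 17884 genes tested was (0% at 6h and 0% at 12h in edgeR, with 1046 and 1069 genes, 5.85% and 5.98%, at an unadjusted p under 0.05). DESeq2 called 10 and 18 genes (0.0355% and 0.0692%), 0 of the 10 among them at either time. For each gene of the 10 the changes of the 2 groups' pigs overlapped, and the share of all genes that did so is not given here. KLF9 gave a difference, PD minus GS on the log2 scale, of -0.03 (95% interval -0.97 to 0.92) at 6h and -0.19 (95% interval -1.13 to 0.76) at 12h. For GLUL it was -0.37 (95% interval -1.20 to 0.45) and 0.01 (95% interval -0.81 to 0.84). For FKBP5 it was -0.77 (95% interval -2.15 to 0.62) and 0.13 (95% interval -1.28 to 1.55). A 2-fold difference in at least 1 direction lies inside the interval of FKBP5, TSC22D3, ZBTB16, NR3C1, PDK4 and CEBPD at both times, of GLUL at 6h and of KLF9 at 12h, and inside neither interval of HSD11B1 and CEBPB. The largest difference at 6h was that of TSC22D3 and the largest at 12h that of PDK4. TSC22D3 gave -1.29 (95% interval -2.25 to -0.33) at 6h, with an unadjusted p of 0.0112 and an adjusted p of 0.783. At 12h it gave -0.86 (95% interval -1.83 to 0.10), with an adjusted p of 0.866. Mean TSC22D3 levels in GS and PD were 190 and 504 CPM at 0h, 246 and 258 CPM at 6h and 207 and 297 CPM at 12h. The groups thus lay far apart before perfusion, and PD was not below GS after it. PDK4 gave -0.54 (95% interval -2.19 to 1.11) at 6h and -1.45 (95% interval -3.03 to 0.13) at 12h, the latter with an adjusted p of 0.862. In the exact two-sided Wilcoxon test on each pig's rlog change, PDK4 at 12h had p = 0.0635 before and 0.816 after correction, TSC22D3 had p = 0.111 at both times, and 0.0159 is the smallest p that 5 against 4 pigs can give. The other 5 genes had differences between -0.28 (CEBPD) and 0.56 (ZBTB16) at 6h and between 0.08 (ZBTB16) and 0.52 (NR3C1) at 12h.

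Before perfusion PD and GS lungs already differed. At 0h, 3 of the 10 genes were called (adjusted p under 0.05, with no fold threshold), in a comparison in which 40.6% of all 16477 genes were. ZBTB16 was lower in PD, with a log2 difference of -2.68 ± 0.48 (SE, adjusted p = 0.00106), and its 15.7 to 51 CPM in PD did not reach the 99.1 to 390.0 CPM of GS. TSC22D3 was higher in PD, at 1.46 ± 0.39 (SE, adjusted p = 0.0105), with only PD pig 2 inside the GS range. HSD11B1 was higher in PD, at 0.85 ± 0.24 (SE, adjusted p = 0.0152), with PD pig 5 inside the GS range. The calls for ZBTB16 and TSC22D3 held without the 0h library of PD pig 4, at -2.73 (adjusted p = 0.00265) and 1.17 (adjusted p = 0.0239), and with the exon length trend removed, at -2.27 (adjusted p = 0.00347) and 1.69 (adjusted p = 0.00677). HSD11B1 was no longer called with that trend removed (0.38 (adjusted p = 0.246)). KLF9, at 0.25 ± 0.19 (SE, adjusted p = 0.307), changed direction and was called lower in PD with the trend removed (-1.17 (adjusted p = 0.00094)), but its exon length is known here only for the coding part. CEBPD, at -0.44 ± 0.33 (SE, adjusted p = 0.301), was called lower in PD without that library of PD pig 4 (-0.93 (adjusted p = 0.00636)) and with the exon length trend removed (-1.04 (adjusted p = 0.0204)). Of 12 lists of cell type markers, 6 had sums at 0h that did not overlap between the groups. Higher in PD were alveolar type 2 markers (26570 to 77860 CPM against 7501 to 10180 CPM), neutrophil markers (4 of 7 in the table, 599.8 to 1224 CPM against 120.9 to 368.9 CPM), red cell markers (4 of 5, 52 to 240.2 CPM against 0.355 to 10.6 CPM) and adipocyte markers (16.0 to 43.4 CPM against 2.76 to 4.53 CPM). Lower in PD were macrophage markers (7 of 7, 2188 to 2868 CPM against 3284 to 6263 CPM) and endothelial markers (6 of 6, 1202 to 1713 CPM against 1907 to 2690.0 CPM). Their part in these differences was not tested, and in bulk tissue fewer cells of a type and less RNA per cell cannot be told apart. The other genes differed by -0.70 (FKBP5) to 0.42 (CEBPB) on the log2 scale, none called.

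Across the 27 libraries, with each pig's own mean removed, the log2 levels of FKBP5 and GLUL followed each other most closely among the 10 genes (Pearson r = 0.924), and those of KLF9 and GLUL had r = 0.849. TSC22D3 stood aside, with r between -0.479 (NR3C1) and 0.406 (PDK4). These correlations share pigs, times and library depth and are given as description. Among the genes with a symbol that entered this comparison, NETO2 (r = 0.943), GLUL and IL1R2 (r = 0.922) were nearest to FKBP5. NAMPT (r = 0.958), EIF2AK3 (r = 0.952) and BTG3 (r = 0.952) were nearest to KLF9. IL1R2 encodes the decoy receptor for interleukin-1 and NAMPT an enzyme of NAD synthesis. Nearest to ZBTB16 were PARD3B (r = 0.88), AFF4 (r = 0.878) and TANC2 (r = 0.846). For TSC22D3 they were SCARNA13 (r = 0.877), a small Cajal body RNA, ZFYVE27 (r = 0.847) and HSBP1 (r = 0.844).

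Other genes of the pathway were read from 5 lists. Of 38 tested genes that glucocorticoids are known to induce, 13 were called higher at 6h and 15 at 12h in GS, and 2 and 10 in PD, with 0 called lower in each. In the same order, 5.5% and 6.99% of all genes were called higher in GS and 0.135% and 3.22% in PD. The list's median log2 fold change was 0.71 and 0.81 in GS and 0.60 and 0.48 in PD, against -0.05 and -0.08 in GS and -0.025 and -0.05 in PD over all genes. MT1A, a metallothionein that binds zinc and copper, had the largest change among those called at 12h, with a log2 fold change at 12h of 4.73 ± 0.49 (SE, adjusted p = 6.74e-05) in GS and 6.58 ± 0.82 (SE, adjusted p = 0.0105) in PD. Close copies of the gene may leave its counts uncertain, which was not tested. MT1A is also without a value in the comparison of the groups at 0h, which is filtered on low counts. Its 0h level may thus be too low for these changes to be exact. With that library of PD pig 2 at 12h left out, 8 of the 38 were called higher at 6h and 15 at 12h in PD, and 0 and 1 lower, while 1.59% and 26.2% of all genes were called in either direction.

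Among genes that glucocorticoids are known to repress, calls were of higher levels in both groups. Of 17 tested in GS, 6 were called higher at each time, and of 16 in PD, 3 at 6h and 7 at 12h, with 0 lower in each, beside 5.5% and 6.99% of all genes called higher in GS and 0.135% and 3.22% in PD. Among those called, the largest change in both groups at 12h was that of CSF3, the granulocyte colony-stimulating factor, at 2.85 ± 0.40 (SE, adjusted p = 0.000308) in GS and 4.53 ± 1.04 (SE, adjusted p = 0.0326) in PD. With the 12h library of PD pig 2 left out, 8 and 9 were called higher in PD and 1 lower at each time, where 1.59% and 26.2% of all genes were called. The median log2 fold change was 0.45 and 0.745 in GS and 2.00 and 1.71 in PD. The group difference in the change from 0h, for which no gene of all those tested was called, was above 0 (PD higher) for 15 of the 17 at 6h and 16 at 12h, beside 51.6% and 49.4% of all genes, with medians of 1.10 and 0.884 against 0.022 and -0.007 over all genes. Both times share their 0h libraries. The list also names IL6, TNF, IL1B, CCL4, IRF1 and LIF. For these the study had already reported a larger rise in PD at 6h or 12h, from the same lungs. The count above 0 is therefore not independent of that report and is given as description. For the induced genes the group difference was above 0 for 20 and 18 of the 38, with medians of 0.016 and -0.031. The medians of the other 3 lists lay between 0.072 and 0.211 at 6h and between -0.216 and 0.044 at 12h.

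Receptor chaperones and coregulators (18 tested) held 0 called higher and 1 called lower at each time in GS. This was HSPA1L, a heat shock protein, at -2.59 ± 0.41 (SE, adjusted p = 0.000572) at 12h. None of the 18 was called in PD, where HSPA1L was -2.95 ± 0.80 (SE, adjusted p = 0.0523) at 12h. Of 6 tested genes of steroid metabolism and export, 0 were called in either group. Among relatives of the 10 genes (18 tested in GS, 17 in PD), 4 and 3 were called higher in GS and 0 and 2 in PD, and 0 lower. Over all genes, 11.1% and 15.7% were called in either direction at 6h and 12h in GS, and 0.142% and 5.98% in PD. KLF10, a Krüppel-like factor, was 2.22 ± 0.34 (SE, adjusted p = 0.000508) at 12h in GS and 1.48 ± 0.46 (SE, adjusted p = 0.0804) in PD. TSC22D2, of the TSC22 family, was 1.40 ± 0.34 (SE, adjusted p = 0.00696) at 12h in GS and 1.5 ± 0.38 (SE, adjusted p = 0.0409) in PD, called in both. Without the 12h library of PD pig 2, PD at 12h had 3 higher and 1 lower of the 18 chaperones and coregulators, 0 of the 6 steroid genes, and 6 higher and 3 lower of the 17 relatives, when 26.2% of all genes were called.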

How the data were processed

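RNA-seq was made from 27 lung biopsies of 5 GS and 4 PD pigs at 0h, 6h and 12h. According to the methods and the submitters' processing notes, the authors trimmed reads with Cutadapt 1.15, aligned them with TopHat2 2.0.14 to Sscrofa11.1 with Ensembl annotation and counted reads per gene. The libraries were made with a stranded kit. The notes name featureCounts and Subread 1.6.0, and the strand and multi-mapping settings of the counting are not given in the sources used here. The deposited counts were used as they stand, in whole numbers. RNA was extracted by either of 2 kits, and which biopsy was given which is not given in the sources used here.

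Groups, pigs and times were read from the labels. Within a group, edgeR 4.0.16 under R 4.3.3 gave two-sided quasi-likelihood tests with robust dispersion, after filterByExpr by group and time and TMM scaling, with the pig as a replicate block, since the biopsies of a number come from 1 animal. Residuals of libraries of 1 pig had a mean r of 0.517 in GS (0.352 to 0.728) and 0.116 in PD (-0.215 to 0.42). The interaction was fitted on all 27 libraries and the 0h comparison on the 0h libraries alone. Adjusted p-values are Benjamini-Hochberg over all genes tested. Levels are CPM, counts scaled to a common library total, after TMM, and a floor of 3 counts is worth up to 0.104 CPM in a GS library and up to 0.324 CPM in a PD library. Intervals are 95% intervals of the fit. Every pair of libraries differed beyond sampling noise, with a chi-square of at least 39.8 times its degrees of freedom. The interaction was also tested with an exact Wilcoxon test on differences of rlog values (DESeq2 1.42.0). The study's methods name an unpaired Wilcoxon test of fold changes, and the exact form and the rlog differences were chosen here.

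Alternatives were DESeq2, DESeq2 size factors, no filter, no block, no fold threshold, 1 fit of all libraries and each pig left out. Leaving out single PD libraries, splitting GS by depth and removing the exon length trend (RefSeq exon lengths, known for 81.1% of 17884 genes) were chosen after seeing the data. Motifs were searched in the RefSeq copy of Sscrofa11.1 around the gene starts of the deposited table. Scripts were tested on simulated data. The genes named are the 10 members in every comparison, for FKBP5, TSC22D3, ZBTB16 and KLF9 the 3 genes with a symbol that correlated most with each (log2 CPM less the pig's mean), and from each pathway list the called gene with the largest change at 12h in GS, in PD and in their difference. The 10 genes and the lists were chosen with earlier results of these data known.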

Additional observations from a re-analysis of the deposited data

Results flagged for a closer look

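A sample was singled out where its gap to the nearest other sample of its group exceeded Dixon's 95% critical value. Over 100 groups of levels and changes of the 10 genes, 3 samples were singled out, and chance gives about 5. KLF9 in PD pig 2 at 12h was 177 CPM, against 656 to 840.0 CPM in the other PD pigs at 12h, and this is the library with the exon length slope of -0.596. NR3C1 in GS pig 17 at 12h was 252 CPM, against 144 to 168 CPM in the other GS pigs at 12h. HSD11B1 in PD pig 3 had a log2 ratio of -0.27 between 6h and 0h, against 0.624 to 0.641 in the other PD pigs.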

How the results depend on the processing

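For GS 6h against 0h, 3 of the 10 genes were called and 5 with the exon length trend removed (10.7%), 6 in GS pigs 9 and 17 alone (5.05%), 5 with no fold threshold (28.5%) and 2 to 5 with each pig left out in turn (7.2% to 11.4%). For GS 12h against 0h, 5 of the 10 genes were called and 3 without the pig as replicate block (10.2%), 8 in GS pigs 9 and 17 alone (7.64%), 2 in GS pigs 44, 55 and 77 alone (18.9%) and 2 to 5 with each pig left out in turn (11.6% to 18.8%). For PD 6h against 0h, 0 of the 10 genes were called and 1 with DESeq2 (2.3%), 1 without the PD pig 2 12h library (1.59%), 2 without both doubted PD libraries (2.63%) and 1 with all 27 libraries in 1 fit (2.68%). For PD 12h against 0h, 1 of the 10 genes were called and 2 without the pig as replicate block (9.39%), 5 with DESeq2 (14.6%), 2 with DESeq2 size factors (6.13%), 3 without a filter on low counts (3.41%), 4 with the exon length trend removed (7.6%), 6 without the PD pig 2 12h library (26.2%), 5 without both doubted PD libraries (21.1%), 5 with all 27 libraries in 1 fit (18.5%) and 0 to 8 with each pig left out in turn (0% to 24.4%). For PD 12h against 6h, 0 of the 10 genes were called and 1 without both doubted PD libraries (4.34%). Percentages are of all genes tested. In PD at 12h, the 8 genes were called without pig 2, 0 without pig 3 or pig 5 and 1 without pig 4. Over all genes, 930 were called with every library, 4161 without the 12h library of PD pig 2, 2518 by DESeq2 and 1460 without the block. The cause of these shifts was not tested. The counts for 12h against 6h in GS, for both group differences in the change from 0h and for 0h moved by no more than 1.5 times.

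Samples of 1 number come from 1 pig, so the pairing is that of the animal. Without the replicate block FKBP5 (1.74) and ZBTB16 (0.87) lost their call at 12h in GS and CEBPD (2.24) gained one at 12h in PD, and no other gene's call changed. Without a filter, PDK4 at 6h (1.28 (adjusted p = 0.142)) and FKBP5 at 12h (1.48 (adjusted p = 0.114)) in GS lost their call. With all 27 libraries in 1 fit, PDK4 at 6h (1.29 (adjusted p = 0.13)) and ZBTB16 at 12h (1.07 (adjusted p = 0.0605)) in GS lost theirs. Direction changed without the block for NR3C1 between 6h and 12h in GS (-0.0051) and for the group difference in the 12h change of FKBP5 (-0.042) and GLUL (-0.034).

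Other changes of direction, on the log2 scale, were these. In GS pigs 44, 55 and 77 alone, TSC22D3 was -0.12 at 6h and -0.42 at 12h against 0h, and GLUL -0.063 between 6h and 12h. In GS pigs 9 and 17 alone, NR3C1 was -0.18 between 6h and 12h. With the exon length trend removed, CEBPB was 0.22 at 6h in PD and KLF9 -0.009 between 6h and 12h in PD. The same setting gave group differences of 0.38 (KLF9), 0.20 (HSD11B1) and 0.14 (CEBPB) in the 6h change, 0.17 (KLF9) in the 12h change, and -1.17 (KLF9), 0.41 (NR3C1) and -0.61 (CEBPB) at 0h. Without both doubted PD libraries, CEBPB was 0.080 at 6h in PD, PDK4 1e-04 at 12h in PD and TSC22D3 -0.039 between 6h and 12h, with differences of 0.11 (CEBPD, 6h change) and 0.16 (KLF9, 12h change). Without only the 12h library of PD pig 2, TSC22D3 was -0.067 between 6h and 12h, and the differences in the 12h change were 0.20 (KLF9), -0.097 (CEBPB) and -0.26 (CEBPD). Without the 0h library of PD pig 4, NR3C1 was 0.15 at 0h. Without a filter on low counts, the difference was 0.0053 for HSD11B1 (6h change) and -0.037 for GLUL (12h change). The rlog values of the Wilcoxon test gave -0.074 (FKBP5), -0.037 (ZBTB16) and -0.041 (GLUL) for the 12h change. Of these, KLF9 at 0h was called with the trend removed, and the others were called in neither setting, TSC22D3 at 12h (-0.42) having an adjusted p of 0.028 below the fold threshold. The exon lengths used for KLF9 and CEBPB cover only their coding part, so their values with the trend removed are uncertain.

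With each pig left out in turn, some values changed sign. For GS 12h against 0h, the range was TSC22D3 -0.12 to 0.32. For PD 6h against 0h, the ranges were PDK4 -0.12 to 1.26 and CEBPB -0.23 to 0.053. For GS 12h against 6h, the ranges were FKBP5 -0.024 to 0.37 and NR3C1 -0.077 to 0.21. For PD 12h against 6h, the ranges were ZBTB16 -0.41 to 0.26, KLF9 -0.20 to 0.68 and NR3C1 -0.19 to 0.52. For PD minus GS in the 6h change, the ranges were ZBTB16 -0.18 to 1.16, KLF9 -0.41 to 0.24, HSD11B1 -0.17 to 0.20 and CEBPD -0.65 to 0.094. For PD minus GS in the 12h change, the ranges were FKBP5 -0.39 to 0.53, ZBTB16 -0.16 to 0.51, KLF9 -0.35 to 0.065, GLUL -0.20 to 0.29, HSD11B1 -0.031 to 0.43, CEBPB -0.17 to 0.47 and CEBPD -0.27 to 1.12. For PD against GS at 0h, the range was NR3C1 -0.12 to 0.15.

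Depth was lower in every PD library than in every GS library, and the part of depth in the wider errors of PD values was not tested. A change called in GS and not in PD is not by that shown to differ between them. The doubted libraries, the GS split and the length trend were examined only after the data had been seen.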
